A study of Homo sapiens with 2 samples.

Results

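The genes described here are the families of plasma membrane and lysosomal carriers that move amino acids, taurine and related small molecules. They were chosen by symbol alone, as the protein-coding genes whose symbol starts with SLC1A, SLC3A, SLC6A, SLC7A, SLC36A, SLC38A or SLC43A, without hyphenated read-through symbols. Of the 58174 gene identifiers in the table, 60 met this rule, and 30 of them were expressed, meaning a level of 1 or more in at least 1 library, in transcripts scaled to a fixed library total (TPM). The 60 genes were 7 of SLC1A, 2 of SLC3A, 19 of SLC6A, 14 of SLC7A, 4 of SLC36A, 11 of SLC38A and 3 of SLC43A. The samples were PC3 cells, a human prostate cancer cell line, transfected either with a small interfering RNA (siRNA) against POH1 or with a control siRNA. POH1, with the gene symbol PSMD14, removes ubiquitin chains from substrates at the lid of the proteasome. Each group held 1 RNA sequencing library, so no value below has an error, no test between the groups was possible, and every difference is one between these 2 libraries. RNA was taken from whole cultures, so fewer cells of a type and less RNA per cell cannot be told apart.

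The label of amino acid transporters fits most but not all of these genes. SLC7A6OS starts with a family symbol but is not a transporter: it lies on the strand opposite SLC7A6. SLC6A2, SLC6A3 and SLC6A4 carry monoamines, SLC6A8 carries creatine and SLC43A3 carries purine nucleobases. Cells bring in essential amino acids through sodium-coupled carriers, which concentrate their substrates, and through exchangers, which trade an internal amino acid such as glutamine for an external one such as leucine. SLC3A2, also known as 4F2hc or CD98, is the glycoprotein heavy chain that several SLC7 light chains need to reach the cell surface. Amino acids taken up in this way feed protein synthesis and are sensed at the lysosome by the kinase complex mTORC1, while shortage activates the kinase GCN2 and the transcription factor ATF4, which induces many of these carriers.

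PSMD14 itself was at 35.1 TPM in the POH1 siRNA library and 50.9 TPM in the control siRNA library, which left 69.0% of the control level. The 5 epithelial markers (KRT8, KRT18, KRT19, EPCAM, CDH1) were at 129 to 1734 TPM with POH1 siRNA and 111 to 1499 TPM with control siRNA. The androgen-axis genes KLK2 and KLK3 were at 0 in both libraries. Of the 10 leukocyte, endothelial and fibroblast markers, COL1A1 alone exceeded 5 TPM, at 47.8 TPM with POH1 siRNA and 30.9 TPM with control siRNA, while DCN was at 0 and 0.0153 TPM. TPM values are per transcript length and sum to about the same total in each library, so they can be compared between genes but keep no read depth. The depth is unknown for this reason, and no counting interval is given.

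Most of these carriers differed little between the libraries, and SLC6A6, the taurine transporter, stood far from the other members. Each difference is the log2(TPM + 1) value with POH1 siRNA less the one with control siRNA, a scale that understates folds where TPM is low. On this scale 2 of the 30 expressed genes, SLC6A6 and SLC7A7, were at least 1.5-fold higher with POH1 siRNA (6.67%), against 10.9% of all 15745 expressed genes. Another 2, SLC6A16 and SLC38A9, were at least 1.5-fold lower (6.67%), against 9.48% of all expressed genes. The other 26 lay within 1.5-fold, so the share of members that differed was no larger than that of the whole table. In either direction, 20.4% of all expressed genes were past 1.5-fold. Among expressed protein-coding genes alone, 9.51% were at least 1.5-fold higher and 8.53% lower, and at 2-fold 1.97% were higher and 2.62% lower. At 2-fold, 1 member was higher, SLC6A6, against 2.49% of all expressed genes, and none was lower, against 3.22%. Over the ratio of TPM values with no added constant, 5 members were at least 1.5-fold higher, against 15.7% of the genes above 0 in both libraries, and 2 were lower, against 13.2%. The 5 were SLC6A6, SLC7A8, SLC7A7, SLC43A2 and SLC36A4.

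The median difference of the 30 members was 0.22, and that of all expressed genes was 0.12. The members' median was 0.29 without SLC7A6OS, which is not a transporter, and 0.14 without SLC6A6, so it moved with single genes. Of the members, 19 lay above 0 and 11 below. Scaling the libraries to a median log2 ratio of 0 brought the median of all expressed genes to 0 and that of the members to 0.082, with 16 members above 0. Under that scaling SLC1A5, SLC6A11 and SLC38A7 changed sign, and all of them lay within 1.5-fold either way. In the whole table the split of genes past 1.5-fold was 1718 higher and 1493 lower, of which 53.5% were higher; with median scaling 34.4% were higher and with adjustment for GC content 69.9%. Over the 30 members, which are not independent replicates, levels with POH1 siRNA and with control siRNA correlated on the log2(TPM + 1) scale. Pearson's r was 0.96 and Spearman's rho 0.95, against 0.97 and 0.96 over all expressed genes.

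**Figure D1:**
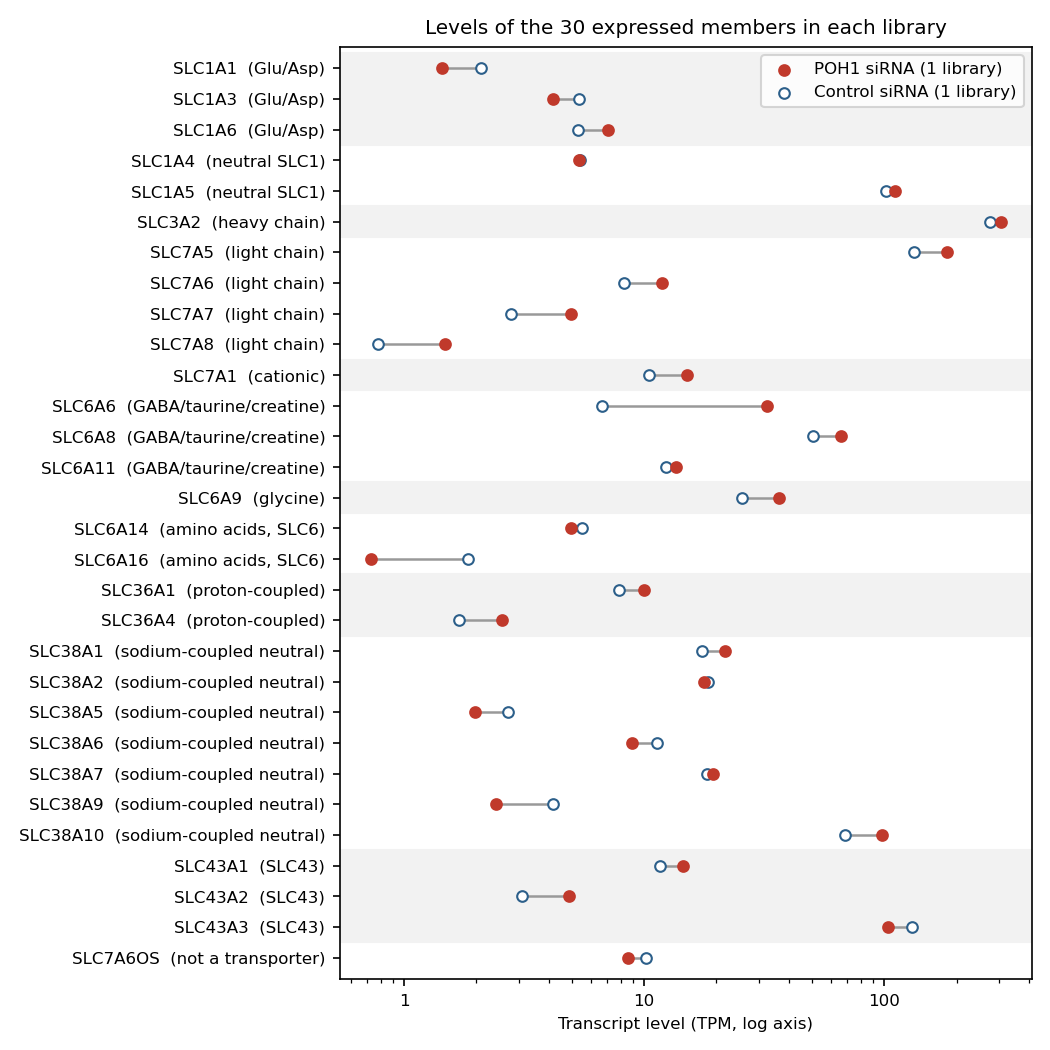
Transcript level in TPM (log axis) of the 30 expressed members, grouped by role, with filled points for the POH1 siRNA library and open points for the control siRNA library. SLC3A2 is at the right, at 305 TPM with POH1 siRNA and 276 TPM with control siRNA, and SLC6A6 has the longest line, between 32.5 TPM with POH1 siRNA and 6.67 TPM with control siRNA.

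The pool of these transcripts was dominated by a few genes. The 30 expressed members summed to 1118 TPM in the POH1 siRNA library and 960 TPM in the control siRNA library. The 5 most abundant in the control siRNA library, SLC3A2, SLC7A5, SLC43A3, SLC1A5 and SLC38A10, made up 71.6% of that sum with POH1 siRNA and 74.0% with control siRNA. SLC3A2 alone made up 27.3% with POH1 siRNA and 28.8% with control siRNA. The order of the 7 highest levels was the same in both libraries but for SLC1A5 and SLC43A3, which changed places. SLC6A6 was 8th in the POH1 siRNA library and 18th in the control siRNA library among the 30.

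SLC6A6 encodes TauT, the sodium- and chloride-dependent carrier that concentrates taurine, an amino sulfonic acid that acts as an organic osmolyte. It was at 32.5 TPM in the POH1 siRNA library and 6.67 TPM in the control siRNA library. The level with POH1 siRNA was 4.88-fold that with control siRNA, a log2 difference of 2.13, and 30 of the 15745 expressed genes (0.191%), SLC6A6 included, had a difference this high. The value ran from 1.69 with a pseudocount of 5 to 2.27 with a pseudocount of 0.1, and was 2.09 after adjustment for GC content. GRIP2, whose exons overlap those of SLC6A6 on the opposite strand, was at 0.0139 TPM with POH1 siRNA and 0 with control siRNA. The pseudogene SLC6A6P1, taken by its name, was at 0 in both libraries. No promoter window of SLC6A6 or of SLC43A3 was used here.

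The other expressed carriers of the same SLC6 branch were close to the control. SLC6A8, the creatine carrier, was at 65.7 TPM with POH1 siRNA and 50.5 TPM with control siRNA, a difference of 0.37. SLC6A11, the GABA carrier GAT3, was at 13.6 TPM with POH1 siRNA and 12.4 TPM with control siRNA, a difference of 0.13. SLC6A12, the betaine carrier, was at 0.0333 TPM with POH1 siRNA and 0 with control siRNA. Of the 3 expressed genes of this branch, SLC6A6 was the one past 1.5-fold.

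SLC6A9, which encodes the glycine carrier GlyT1, was at 36.4 TPM with POH1 siRNA and 25.5 TPM with control siRNA, a difference of 0.50 that lay within 1.5-fold. Its exons share 404 bases with CCDC24 on the opposite strand, which was at 29.1 TPM with POH1 siRNA and 22.1 TPM with control siRNA; strand use in counting is not stated, so reads of the pair may not be separated. SLC6A14, the broad carrier of neutral and cationic amino acids, was at 4.95 TPM with POH1 siRNA and 5.52 TPM with control siRNA. SLC6A16, an orphan carrier of the family, was at 0.730 TPM with POH1 siRNA and 1.84 TPM with control siRNA. This was 2.52-fold lower in TPM and a log2 difference of -0.72. SLC6A16 was the one member that reached 1 TPM in the control siRNA library only, and SLC7A8 the one that did so in the POH1 siRNA library only, so each entered the expressed set through its higher library.

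The heavy chain SLC3A2 hardly differed, and its expressed light chains all lay above the control. Of these, SLC7A8 had to by the filter, because it reached 1 TPM in the POH1 siRNA library only. SLC3A2 was at 305 TPM with POH1 siRNA and 276 TPM with control siRNA, a log2 difference of 0.14 that was 0.0017 after median scaling. SLC7A5 encodes LAT1, the exchanger that brings leucine and other large neutral amino acids into the cell. It was at 183 TPM with POH1 siRNA and 133 TPM with control siRNA, a difference of 0.46. SLC7A7, which encodes the exchanger y+LAT1, was at 4.96 TPM with POH1 siRNA and 2.78 TPM with control siRNA. It was 1.79-fold higher with POH1 siRNA, and its log2 difference of 0.66 was past 1.5-fold as deposited but not under median scaling, at 0.54.

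SLC7A6, which encodes y+LAT2, was at 11.9 TPM with POH1 siRNA and 8.26 TPM with control siRNA, a difference of 0.47. SLC7A6OS, whose exons share 3371 bases with it on the other strand, was at 8.54 TPM with POH1 siRNA and 10.2 TPM with control siRNA. The pair thus differed in opposite directions, and without strand their reads cannot be told apart. SLC7A8, which encodes LAT2, was at 1.48 TPM with POH1 siRNA and 0.779 TPM with control siRNA. Its TPM ratio was 1.90, but its difference on the log2(TPM + 1) scale was 0.48.

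The 4 expressed light chains had differences from 0.46 to 0.66 with a median of 0.48. All 4 stayed above 0 with median scaling and with GC adjustment. SLC7A8 is among the 4 through its POH1 siRNA level only, so its place above the control was fixed by the filter. The 8 light chain genes together were at 202 TPM with POH1 siRNA and 145 TPM with control siRNA, and SLC7A5 made up 90.4% of that with POH1 siRNA and 91.3% with control siRNA. The ratio of SLC3A2 to all light chains was 1.51 with POH1 siRNA and 1.90 with control siRNA. The pseudogenes SLC7A5P1 and SLC7A5P2, copies of SLC7A5, were low: SLC7A5P1 was at 1.82 TPM with POH1 siRNA and 0.903 TPM with control siRNA, and SLC7A5P2 at 0.331 TPM with POH1 siRNA and 1.003 TPM with control siRNA. Adding them left the difference of SLC7A5 at 0.45. SLC7A1, the cationic amino acid carrier CAT1 that takes up arginine and lysine without a heavy chain, was at 15.1 TPM with POH1 siRNA and 10.4 TPM with control siRNA, a difference of 0.49.

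**Figure D2:**
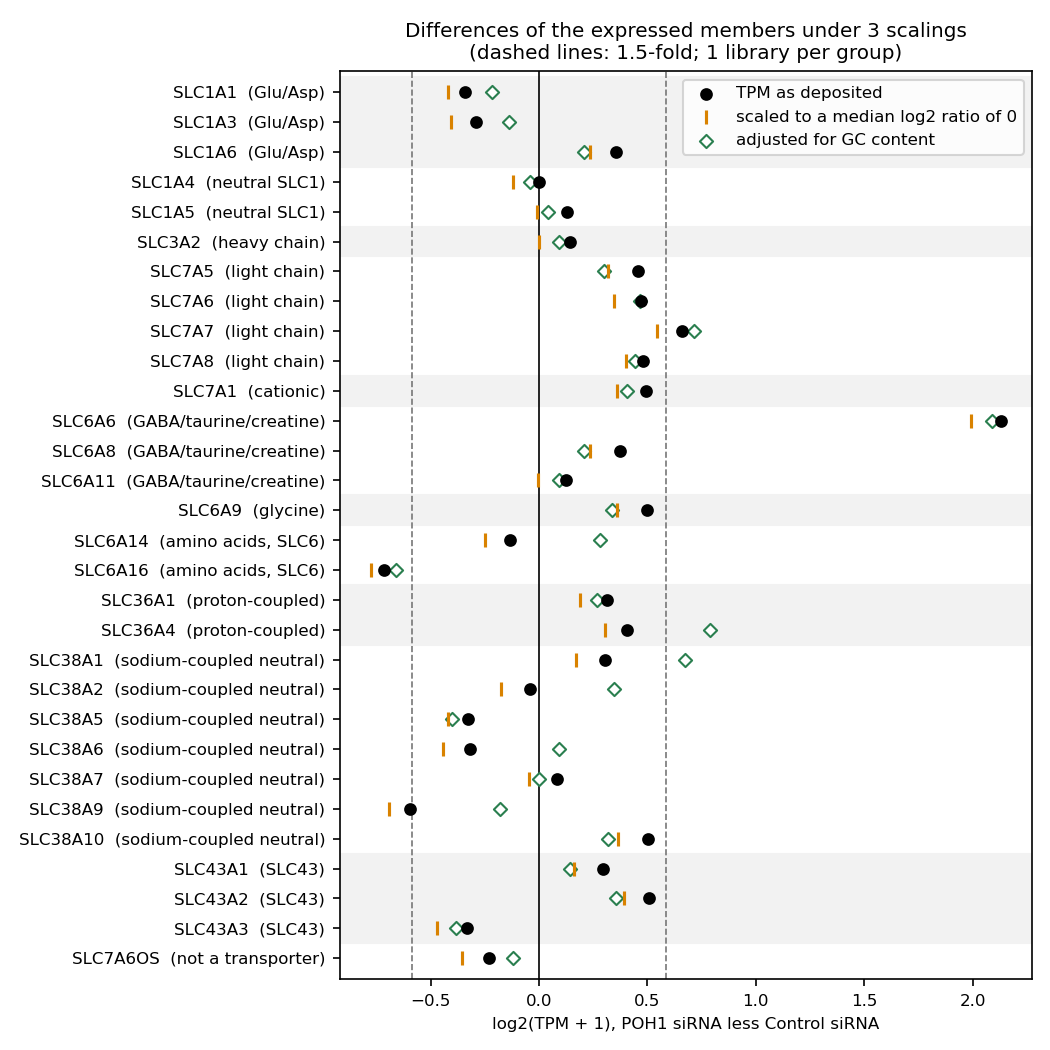
log2(TPM + 1) of the POH1 siRNA library less that of the control siRNA library for the 30 expressed members, with TPM as deposited (black points), after scaling to a median log2 ratio of 0 (orange bars) and after adjustment for GC content (green diamonds). Dashed lines mark 1.5-fold; SLC6A6 is near 2 under all 3, whereas SLC38A9 lies past 1.5-fold as deposited, at -0.60, and with median scaling, but at -0.18 after GC adjustment.

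In SLC1, none of the 5 expressed genes was past 1.5-fold. SLC1A5, which encodes the glutamine exchanger ASCT2, was at 111 TPM with POH1 siRNA and 101 TPM with control siRNA, a difference of 0.13 that was -0.010 after median scaling. SLC1A4, its relative ASCT1 with serine and alanine among its substrates, was at 5.37 TPM with POH1 siRNA and 5.38 TPM with control siRNA. The glutamate carriers went both ways. SLC1A1 (EAAT3) was at 1.44 TPM with POH1 siRNA and 2.09 TPM with control siRNA, and SLC1A3 (EAAT1) at 4.19 TPM with POH1 siRNA and 5.35 TPM with control siRNA. SLC1A6 (EAAT4), known from cerebellar Purkinje cells, was at 7.04 TPM with POH1 siRNA and 5.28 TPM with control siRNA. The 3 glutamate carriers together summed to 12.7 TPM in each library.

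The SLC38 family, sodium-coupled carriers of small neutral amino acids and glutamine and their lysosomal relatives, was mixed. Of its 7 expressed genes, 3 lay above the control, 4 below, and SLC38A9 alone was past 1.5-fold. SLC38A9 encodes the lysosomal arginine sensor that signals to mTORC1. It was at 2.41 TPM with POH1 siRNA and 4.16 TPM with control siRNA, 1.72-fold lower in TPM and a log2 difference of -0.60. SLC38A9 has a transcript GC content of 39.8%, and after GC adjustment its difference was -0.18. SLC38A10, a less studied member, was at 97.9 TPM with POH1 siRNA and 68.8 TPM with control siRNA, a difference of 0.50. SLC38A7, a lysosomal glutamine exporter, was at 19.4 TPM with POH1 siRNA and 18.2 TPM with control siRNA.

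SLC38A1 and SLC38A2 encode SNAT1 and SNAT2, the main concentrative glutamine carriers, and lie 88 kb apart on chromosome 12. SLC38A1 was at 21.8 TPM with POH1 siRNA and 17.5 TPM with control siRNA, a difference of 0.30. SLC38A2, a gene that amino acid shortage induces, was at 17.8 TPM with POH1 siRNA and 18.4 TPM with control siRNA, a difference of -0.04. Both are AT-rich, with GC contents of 42.6% and 38.4%, and after GC adjustment their differences were 0.67 and 0.35. SLC38A5, a carrier of glutamine, histidine and other neutral amino acids, was at 1.96 TPM with POH1 siRNA and 2.72 TPM with control siRNA. SLC38A6 was at 8.87 TPM with POH1 siRNA and 11.3 TPM with control siRNA, and it shares 245 exon bases with TRMT5 on the other strand, which was at 11.2 TPM with POH1 siRNA and 17.2 TPM with control siRNA.

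Among the proton-coupled carriers, SLC36A1 (PAT1), which exports amino acids from lysosomes, was at 10.01 TPM with POH1 siRNA and 7.86 TPM with control siRNA. SLC36A4 (PAT4) was at 2.56 TPM with POH1 siRNA and 1.69 TPM with control siRNA, a difference of 0.41. In SLC43, the facilitators of large neutral amino acids SLC43A1 (LAT3) and SLC43A2 (LAT4) lay above the control. SLC43A1, first found as a gene overexpressed in prostate cancer, was at 14.5 TPM with POH1 siRNA and 11.6 TPM with control siRNA. SLC43A2 was at 4.84 TPM with POH1 siRNA and 3.10 TPM with control siRNA, a difference of 0.51. SLC43A3, the nucleobase carrier, was at 104 TPM with POH1 siRNA and 131 TPM with control siRNA, a difference of -0.33. It lies 57 kb from SLC43A1 on chromosome 11. SLC43A3 shares 1349 same-strand exon bases with an unnamed protein-coding gene, and the sum of both gave -0.31.

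The other 30 members did not reach 1 TPM in either library. Of these, 12 were listed at 0 in both, among them SLC1A2, SLC6A2, SLC6A3, SLC6A5, SLC6A15, SLC6A18, SLC6A19, SLC7A3, SLC7A4, SLC7A14 and SLC38A11. The remaining 18 were SLC1A7, SLC3A1, SLC6A4, SLC6A7, SLC6A12, SLC6A13, SLC6A17, SLC6A20, SLC7A2, SLC7A9, SLC7A10, SLC7A11, SLC7A13, SLC36A2, SLC36A3, SLC38A3, SLC38A4 and SLC38A8. The highest of them was SLC7A11, which encodes xCT, the light chain that imports cystine for glutathione synthesis. SLC7A11 was at 0.802 TPM with POH1 siRNA and 0.711 TPM with control siRNA, just outside the threshold of 1 TPM. Next outside it was SLC7A2, at 0.290 TPM with POH1 siRNA and 0.521 TPM with control siRNA. Just inside it were SLC7A8 and SLC6A16, given above, and SLC1A1. SLC3A1, the heavy chain rBAT of kidney and intestine, was at 0.177 TPM with POH1 siRNA and 0 with control siRNA, and its partner SLC7A9 was at 0.0432 TPM with POH1 siRNA and 0 with control siRNA.

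The members' differences followed their GC content about as those of other genes did. Across the 30 members the Spearman correlation of the log2 difference with transcript GC content was 0.44, and across 15718 expressed genes it was 0.41; both describe genes of the same 2 libraries. Genes of at least 5 TPM and up to 40% GC had a median difference of -0.24, and the 4 expressed members of that GC range, SLC36A4, SLC38A2, SLC38A6 and SLC38A9, had -0.18 at any level. Genes above 60% and up to 65% GC had a median of 0.31, and the 5 members there, SLC6A8, SLC6A9, SLC7A5, SLC38A10 and SLC43A1, had 0.46. After GC adjustment 4 members were at least 1.5-fold higher, SLC6A6, SLC7A7, SLC36A4 and SLC38A1, and SLC6A16 alone was lower. With the same adjustment 13.3% of all expressed genes were higher and 5.74% lower, so the members' share was close to that of the whole table. SLC6A14, SLC38A2, SLC38A6 and SLC38A7 changed sign under it. The part of GC content in these differences was not tested.

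**Figure D3:**
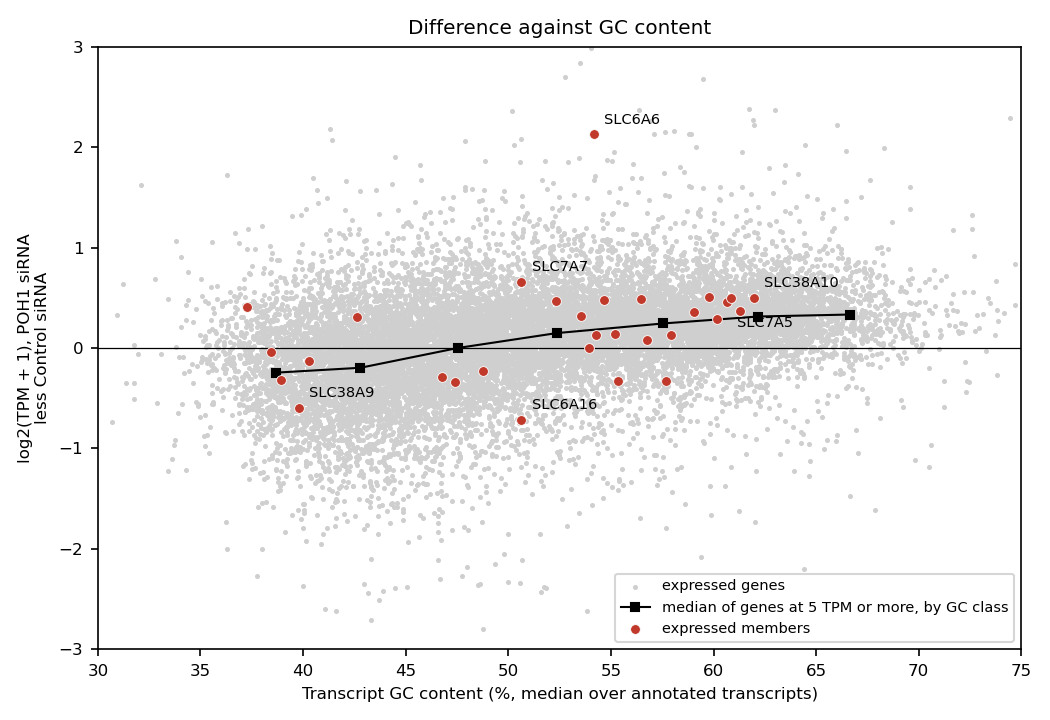
log2(TPM + 1) of the POH1 siRNA library less that of the control siRNA library against transcript GC content in percent, for expressed genes (grey) and the 30 expressed members (red), with the median of genes at 5 TPM or more in each GC class (black squares); 62 genes fall outside the axes or have no GC content. The class medians lie between -0.24 at up to 40% GC and 0.33 above 65%, and SLC6A6 lies far above the line at 54.2% GC.

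Promoter windows were read for motifs of the pathways named above. The RefSeq table of GRCh38.p14 gave a window for 45 of the 60 members and 28 of the 30 expressed ones. It ran from 250 bases before to 50 bases after a listed start of the gene, called its start below. Whether this was the main start of the gene was not checked. The C/EBP-ATF response element core (TGATGNAA on either strand), through which ATF4 acts, was in 3 of the 45 members' windows, SLC1A4, SLC1A5 and SLC7A1, or 6.67%, against 3.62% of all 35116 windows. These 3 genes had differences of -0.00096, 0.13 and 0.49. The antioxidant response element core (TGACNNNGC) was also in 3, SLC7A1, SLC7A5 and SLC7A6, or 6.67%, against 13.3% of all windows. The E-box CACGTG, read by MYC and by the lysosomal regulators of the TFEB family, was in 6, SLC1A7, SLC6A16, SLC7A5, SLC7A8, SLC36A1 and SLC38A5, or 13.3%, against 7.26% of all windows. The tonicity-responsive enhancer, the site of NFAT5, was in 2, SLC7A8 and SLC36A2, or 4.44%, against 5.13% of all windows. No match overlapped a match of another motif. The 35116 windows outnumber the 19762 protein-coding genes, so they include other gene types or several windows of a gene. Each member, in contrast, is protein-coding and was read through a single window, so the shares compared are of unlike sets. A match is a description of the letters only, and no binding was measured.

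Of the windows with a match, 4 are shown as examples, with the 250 bases before the start 5′ to 3′ on the gene's strand and matches in capitals. The window of SLC1A5 (chr19:46784815-46785064, minus strand) holds the C/EBP-ATF core, those of SLC7A5 (chr16:87869508-87869757, minus strand) and SLC36A1 (chr5:151447353-151447602, plus strand) hold E-boxes, and that of SLC7A6 (chr16:68264276-68264525, plus strand) holds 2 antioxidant response element cores. A further antioxidant core of SLC7A5 spans its start and is not in the bases shown.
SLC1A5: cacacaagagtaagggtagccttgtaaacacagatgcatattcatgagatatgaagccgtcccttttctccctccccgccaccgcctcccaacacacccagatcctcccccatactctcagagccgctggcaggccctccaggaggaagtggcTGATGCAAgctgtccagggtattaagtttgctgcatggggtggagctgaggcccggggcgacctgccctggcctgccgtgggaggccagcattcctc
SLC7A5: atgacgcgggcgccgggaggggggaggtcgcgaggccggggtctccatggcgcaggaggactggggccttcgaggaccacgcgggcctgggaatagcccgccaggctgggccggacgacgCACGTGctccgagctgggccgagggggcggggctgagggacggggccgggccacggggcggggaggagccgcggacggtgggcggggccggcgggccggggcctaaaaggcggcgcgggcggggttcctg
SLC36A1: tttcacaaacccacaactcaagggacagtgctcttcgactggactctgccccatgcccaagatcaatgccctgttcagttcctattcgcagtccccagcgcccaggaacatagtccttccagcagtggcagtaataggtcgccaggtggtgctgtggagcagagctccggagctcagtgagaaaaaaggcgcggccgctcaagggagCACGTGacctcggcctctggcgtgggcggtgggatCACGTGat
SLC7A6: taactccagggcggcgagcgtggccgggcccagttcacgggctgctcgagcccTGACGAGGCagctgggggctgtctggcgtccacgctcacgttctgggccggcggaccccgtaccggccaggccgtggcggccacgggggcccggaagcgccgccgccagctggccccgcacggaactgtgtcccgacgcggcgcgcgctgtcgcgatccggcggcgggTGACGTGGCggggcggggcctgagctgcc
SLC36A1 carries 2 E-boxes within 43 bases of its start, and the difference of this gene was 0.31. Those E-box windows that belonged to expressed genes were of genes on both sides of the control: SLC6A16 and SLC38A5 were below it, and SLC7A5, SLC7A8 and SLC36A1 above it.

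Genes that work with these carriers were described through 7 lists, whose counts stand beside 10.9% higher and 9.48% lower among all expressed genes. SLC15A1, SLC15A3 and SLC16A6 reached 1 TPM in the POH1 siRNA library only, and SESN1 and SGK2 in the control siRNA library only. Each of them entered the expressed genes of its list, and so its median, through its higher library. SLC15A3 and SGK2 lay within 1.5-fold, with differences of 0.45 and -0.34. Among the carriers of amino acids and peptides in other families, 15 of 21 genes were expressed; 3 were at least 1.5-fold higher, 1 was lower, and the median was 0.39 against 0.12 for all expressed genes. SLC25A22, a mitochondrial glutamate carrier, was at 47.95 TPM with POH1 siRNA and 19.3 TPM with control siRNA, a difference of 1.27. SLC25A12, the aspartate-glutamate carrier of the malate-aspartate shuttle, was at 30.6 TPM with POH1 siRNA and 19.9 TPM with control siRNA. The peptide carrier SLC15A1 was at 1.81 TPM with POH1 siRNA and 0.742 TPM with control siRNA. SLC25A44, the mitochondrial carrier of branched-chain amino acids, went the other way, at 16.1 TPM with POH1 siRNA and 41.8 TPM with control siRNA, a difference of -1.32. With median scaling 2 genes of this list were higher, and SLC25A12 was within 1.5-fold at 0.46.

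The taurine and osmolyte list holds SLC36A1 and SLC6A12 from the members but not SLC6A6. It had 6 of 10 genes expressed, all of them above the control, with a median of 0.44. SLC16A6 reached 1 TPM in the POH1 siRNA library only, so by the filter it had to lie above the control. It counts in this median and among the higher genes given next. Among all expressed genes 9584 of 15745 were above the control, with a median of 0.12. Of the list, 2 genes were at least 1.5-fold higher, against 10.9% of all expressed genes, and none was lower, against 9.48%. With median scaling 1 was higher, SLC16A6, and AKR1B1 was at 0.58, just within 1.5-fold. AKR1B1, the aldose reductase that makes the osmolyte sorbitol, was at 14.1 TPM with POH1 siRNA and 8.22 TPM with control siRNA. SLC16A6, a carrier of the monocarboxylate family, was at 1.12 TPM with POH1 siRNA and 0.176 TPM with control siRNA. ADO, which makes hypotaurine from cysteamine, was at 33.2 TPM with POH1 siRNA and 22.9 TPM with control siRNA, and CSAD, the decarboxylase of taurine synthesis, at 32.5 TPM with POH1 siRNA and 24.9 TPM with control siRNA. NFAT5, the transcription factor of the tonicity response, was at 1.72 TPM with POH1 siRNA and 1.12 TPM with control siRNA. CDO1 and GADL1 were at 0 in both libraries.

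In the amino acid response list, 15 of 17 genes were expressed; 2 were higher, 2 were lower and the median was 0.26, against 10.9% higher, 9.48% lower and 0.12 for all expressed genes. DDIT3, which encodes CHOP, had a difference of 0.71 and SESN2 one of 0.60, while 2 other known ATF4 targets went the other way. ASNS, the asparagine synthetase, was at 11.4 TPM with POH1 siRNA and 26.4 TPM with control siRNA, a difference of -1.14, and TRIB3 had -0.66. With median scaling neither higher gene was past 1.5-fold, DDIT3 at 0.57 and SESN2 at 0.47, while both lower genes were. EIF2AK4, which encodes GCN2, was at 45.9 TPM with POH1 siRNA and 49.5 TPM with control siRNA. Of 23 expressed genes of amino acid synthesis and glutamine metabolism, 1 was higher and 1, ASNS, was lower, with a median of 0.13. GLUL, the glutamine synthetase, was at 71.8 TPM with POH1 siRNA and 71.5 TPM with control siRNA.

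Of 32 expressed genes of amino acid sensing by mTORC1, 4 were higher and 3 lower, with a median of 0.12, and with median scaling 1 was higher, TSC2, and 4 were lower. Among the higher ones were TSC2, an inhibitor of mTORC1, at 122 TPM with POH1 siRNA and 71.9 TPM with control siRNA, together with FLCN and SESN2, whose differences were 0.62 and 0.60. The lower ones were the GTPase gene RRAGC, at 3.99 TPM with POH1 siRNA and 7.07 TPM with control siRNA, the GATOR2 subunit gene MIOS, at 6.04 TPM with POH1 siRNA and 10.2 TPM with control siRNA, and SESN1, at 0.661 TPM with POH1 siRNA and 1.64 TPM with control siRNA. SLC38A9, described above with the members, acts with these genes at the lysosome. None of the 3 lower genes was past 1.5-fold after GC adjustment.

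The cystine and glutathione list had all 13 genes expressed, with 1 higher, 1 lower and a median of 0.21; with median scaling the higher one, GGT1, was within 1.5-fold at 0.47. NFE2L2, which encodes the antioxidant transcription factor NRF2, was at 14.1 TPM with POH1 siRNA and 34.3 TPM with control siRNA, a difference of -1.23, and GGT1, which cleaves extracellular glutathione, was at 42.6 TPM with POH1 siRNA and 27.6 TPM with control siRNA. GCLC and GCLM, the subunits of glutamate-cysteine ligase and targets of NRF2, differed by 0.12 and 0.0054. Among 16 expressed partners and regulators of the carriers, none was higher, 2 were lower and the median was -0.09. CLTRN, the collectrin that carries SLC6A19 to the surface in the kidney, was at 2.37 TPM with POH1 siRNA and 7.31 TPM with control siRNA, and NEDD4, a ubiquitin ligase, was at 1.45 TPM with POH1 siRNA and 3.31 TPM with control siRNA. CD44, which stabilises xCT, was at 531 TPM with POH1 siRNA and 486 TPM with control siRNA, and NEDD4L was at 49.5 TPM with POH1 siRNA and 44.2 TPM with control siRNA.

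**Figure D4:**
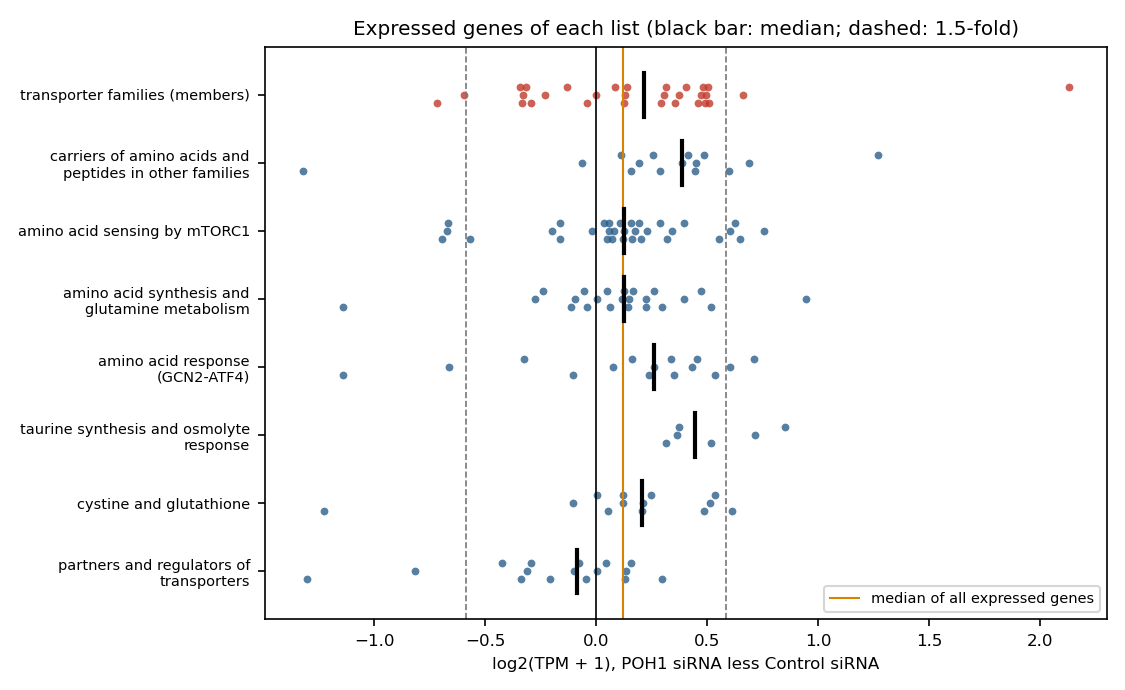
log2(TPM + 1) of the POH1 siRNA library less that of the control siRNA library for each expressed gene of the 60 members (red) and of the 7 related lists (blue), with a black bar at each median, dashed lines at 1.5-fold and an orange line at the median of all expressed genes, 0.12. The medians lie between -0.09 for partners and regulators and 0.44 for the taurine and osmolyte list.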

How the data were processed

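RNA of PC3 cells was sequenced, 1 library for each siRNA. The authors' deposited table gives TPM per Ensembl gene. The submitters' processing notes name CASAVA, HISAT2 and build hg19. For the tool behind the TPM values, the annotation, strand and depth: not given in the sources used here.

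Symbols came from a name table by identifier (57392 of 58174 matched). GENCODE release 29, which annotates GRCh38, gave gene types, chromosomes, strands, exon overlaps and distances between members. It also gave transcript GC content (the median over a gene's transcripts), but none of the window coordinates printed above. Promoter sequences are RefSeq's, on GRCh38.p14. Genes at 1 TPM or more in either library were kept, and log2(TPM + 1) differences were counted at 1.5-fold, with no test. Alternatives were pseudocounts of 0.1 and 5, other filters, median and trimmed mean scaling, TPM without mitochondrial and the 50 most abundant genes, and subtraction of a running median over 501 genes ordered by GC content. The functions were tested on simulated data. Python 3.11.15, numpy 2.4.6 and pandas 2.3.3 were used.

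The members, lists and alternatives were chosen with earlier results of these data known. The rule for names took every expressed member, of each list every gene past 1.5-fold and otherwise the 4 with the largest difference, genes overlapping a member and pseudogenes named after one. Further list genes (EIF2AK4, GLUL, ADO, CSAD, NFAT5, CDO1, GADL1, GCLC, GCLM, CD44, NEDD4L, SLC15A3, SGK2) were named after their values were seen. SAMTOR was not found by symbol. Values of a few member, list and marker genes are not reported here.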

Additional observations from a re-analysis of the deposited data

How the results depend on the processing

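The difference of SLC6A6 was past 2-fold in the same direction, and that of SLC6A16 stayed negative, under every scaling, pseudocount and GC setting run. No member past 1.5-fold changed sign under these settings, and no list gene past 1.5-fold did so under GC adjustment. The counts of members past 1.5-fold are small and moved with the settings: 1 higher and 0 lower with a minimum of 5 TPM in either library or with a pseudocount of 5, 4 higher with a pseudocount of 0.1, 5 higher over the plain TPM ratio (added after the data were seen), 1 higher with median or trimmed mean scaling, 4 higher and 1 lower with GC adjustment, and 1 higher and 0 lower at 2-fold. The median of the members was 0.082 with median scaling, 0.095 with trimmed mean scaling, 0.067 without mitochondrial and the most abundant genes, and 0 over all 60 genes with no filter. With median scaling it was 0.16 without SLC7A6OS and 0.0017 without SLC6A6. Leaving out these genes was not planned. For the lists, median scaling and GC adjustment were added after the data were seen. With median scaling the medians were 0.28 for carriers of other families, -0.0011 for sensing, -0.010 for synthesis, 0.12 for the amino acid response, 0.33 for taurine and osmolytes, 0.076 for cystine and glutathione and -0.21 for partners; the higher counts were 1 for sensing, 0 for the amino acid response, 1 for taurine and 0 for cystine. With GC adjustment 2 sensing genes were higher and 0 lower, 1 gene of the amino acid response was higher, 4 taurine genes were higher with a median of 0.65, the cystine median was 0.33, and 1 partner was lower with a median of 0.062. The depth is unknown, so low TPM values such as those of SLC6A16 and SLC7A8 have no stated precision. No paired analysis was possible because each group held 1 library. The alignment of protein sequences planned for the members was not run.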

Other observations

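Some transcripts named after these carriers fell outside the rule because of a hyphen or a noncoding type, 18 in all. The long noncoding RNA SLC38A4-AS1 was at 9.49 TPM with POH1 siRNA and 13.7 TPM with control siRNA, while SLC38A4 itself was at 0 with POH1 siRNA and 0.0177 TPM with control siRNA. SLC38A4-AS1 was named after its values were seen.

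SLC25A44 and NFE2L2 were each more than 2-fold lower with POH1 siRNA, and after GC adjustment their differences were -1.29 and -0.92. These values were not set against any replicate.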
